A study of Homo sapiens with 4 samples.

Results

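The genes described here are 59 nuclear genes for subunits of the 5 oxidative phosphorylation complexes, measured in the breast cancer lines BT-20 and MDA-MB-468. They were chosen by name and not by their values, and each was found by its Ensembl identifier, so the 59 are among 50653 genes listed. Complex I contributed 32 genes, complex II 4, complex III 7, complex IV 10 and complex V 6. Another 21 nuclear subunit genes were measured as a separate list. Each line carried a lentiviral short hairpin RNA (shRNA), selected with puromycin, that was either a control or directed at QPRT (quinolinate phosphoribosyltransferase), an enzyme of NAD synthesis from tryptophan. One RNA-seq library was made for each line and shRNA, which gave 4 libraries: BT-20 control shRNA, BT-20 QPRT shRNA, MDA-MB-468 control shRNA (MB-468 in the labels) and MDA-MB-468 QPRT shRNA. Both are established human lines of triple-negative breast cancer, the labels give no difference between control and knockdown cells other than the hairpin, and no label says that the libraries came from separate cultures. With 1 library per line and shRNA, a difference within a line has no replicate check.

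Oxidative phosphorylation takes place in the inner mitochondrial membrane. Complex I takes electrons from NADH and complex II from succinate, complex III passes them on to cytochrome c, and complex IV passes them to oxygen. Complexes I, III and IV pump protons, and complex V, the ATP synthase, uses the returning protons to make ATP. Most subunits are encoded in the nucleus and imported, while a few central subunits of complexes I, III, IV and V are encoded by mitochondrial DNA. Core subunits carry the catalytic and electron-carrying sites, and accessory subunits surround and stabilise them. The study examined QPRT in breast cancer and reported less migration and invasion after QPRT knockdown in these lines. Its RNA-seq step asked which genes were differentially expressed with QPRT silencing.

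QPRT itself was at 249 FPKM (fragments scaled by transcript length and library total) in BT-20 control cells and 40.5 with QPRT shRNA, and at 117 and 18.3 in MDA-MB-468. The log2 differences were -2.59 and -2.62, in the direction the labels give. The 4 libraries held 10321996 to 10945948 fragments. Of 8 epithelial markers fixed for these lines, all were above 0 in all 4 libraries, with summed FPKM of 9906 and 10120 in BT-20 against 7209 and 7691 in MDA-MB-468. Single markers differed widely, and the lowest value was 2.76 and 2.51 FPKM in BT-20 against 76.3 and 76.1 in MDA-MB-468. Log2 differences between the lines ran from -2.17 to 6.36, and limma called 7 of the 8, against 55.1% of all tested genes. Of 22 markers of intestine, stomach, plasma cells, leukocytes, fibroblasts and endothelium, 12 had a mean FPKM of at least 1. These 22 summed to 95.9 FPKM in BT-20 control and 51.3 in BT-20 QPRT shRNA, and to 153 and 41.2 in MDA-MB-468. Of the 12, 10 were lower with QPRT shRNA in BT-20 (43% of all tested genes) against 11 in MDA-MB-468 (47.6%). CD68 was at 0 in 3 libraries and CD3E in 3. Limma over both lines called 7 of the 12 lower with QPRT shRNA at an adjusted p under 0.05, against 52 of all 14321 tested genes. When the cell line was not a block it called 0 of the 12 and 0 of all tested genes. The 7 were FABP1, SLC26A3 and KRT20 (intestine), TFF1 and TFF2 (stomach), and IGHA1 and JCHAIN (plasma cells). The markers therefore moved with the shRNA in both lines, and their part in the differences below was not tested. Because the RNA came from bulk cultures, fewer cells expressing a gene and less RNA per cell cannot be told apart.

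All 59 subunit genes were detected in all 4 libraries, and all 59 passed the filter of a mean FPKM of at least 1. Together they summed to 8277 FPKM in BT-20 control, 7431 in BT-20 QPRT shRNA, 9431 in MDA-MB-468 control and 9990 in MDA-MB-468 QPRT shRNA, which was 0.989% to 1.305% of all FPKM. The 13 subunits encoded by mitochondrial DNA took 9.13%, 8.88%, 6.57% and 6.85%. By summed FPKM, nuclear subunits were thus a smaller share in BT-20 than in MDA-MB-468, and the mitochondrially encoded subunits a larger share. The median FPKM of the 59 genes was higher in BT-20 in the control libraries (97.8 against 85.4) and lower with QPRT shRNA (89.1 against 93.9). Levels spanned a wide range within each complex. The highest mean was that of NDUFS5, an accessory subunit of complex I, at 325 and 281 FPKM in BT-20 (control, then QPRT shRNA, here and below) against 1030.2 and 1011 in MDA-MB-468. ATP5F1B, the catalytic beta subunit of complex V, followed at 558 and 622 in BT-20 against 582 and 617 in MDA-MB-468. COX6B1, an accessory subunit of complex IV on the intermembrane side, was at 507 and 421, and at 512 and 547. The lowest mean was that of NDUFB8, an accessory subunit of the membrane arm of complex I, at 1.65 and 1.02 in BT-20 against 1.60 and 1.39 in MDA-MB-468, on 7 to 11 fragments per library. The highest mean was 468 times the lowest in complex I, 3.7 times in complex II, 7.49 times in complex III, 21 times in complex IV and 28.9 times in complex V. The lowest members of complexes I, II, IV and V (NDUFB8, SDHD, COX6A1 and ATP5PO) are among the genes with annotated overlap described below. Without such genes, means in complex I ran from 36.2 FPKM (NDUFA5) to 662 (NDUFS5). They ran from 81.8 (SDHC) to 282 (SDHA) in complex II. In complex IV they ran from 64.4 (COX7B) to 497 (COX6B1), and in complex V from 87.9 (ATP5MC1) to 595 (ATP5F1B).

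**Figure D1:**
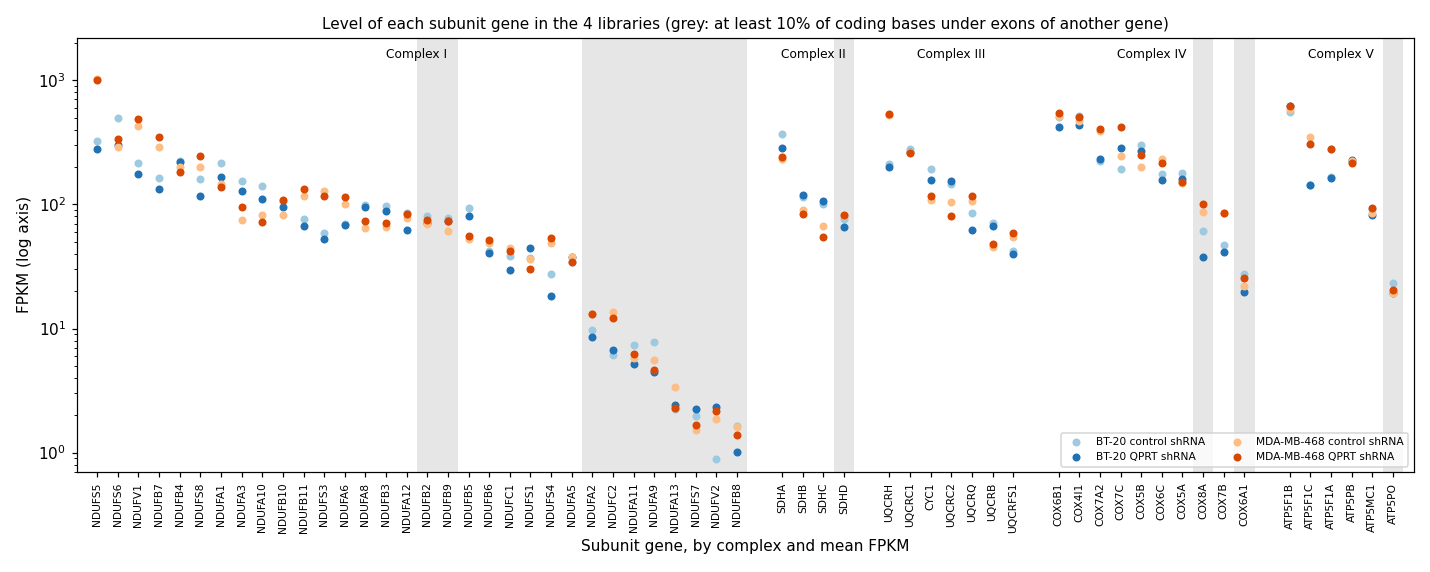
FPKM (log axis) of the 59 subunit genes in each of the 4 libraries, grouped by complex and ordered by mean; each point is 1 library, and grey bands mark genes with at least 10% of their coding bases under exons of another gene. The genes at the bottom of complex I, from NDUFA2 to NDUFB8, all lie in a grey band.

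The low values went together with annotated overlap between genes. In GENCODE release 29, 14 of the 59 genes have at least 10% of their coding bases under exons of another gene. Their mean FPKM had a median of 10.4 (lowest 1.41, highest 76.2), and 10 of the 14 were below 25 FPKM. The other 45 genes had a median of 121 (lowest 36.2, highest 662), and 0 of the 45 were below 25. The genes with overlap were NDUFA2, NDUFA9, NDUFA11, NDUFA13, NDUFB2, NDUFB8, NDUFB9, NDUFC2, NDUFS7, NDUFV2, SDHD, COX6A1, COX8A and ATP5PO. NDUFB8 had 85.2% of its coding bases under AL133352.1 on the same strand, NDUFV2 84.7% under AP005263.1, NDUFC2 76.9% under the readthrough gene NDUFC2-KCTD14, NDUFA9 67.9% under AC005833.1 and ATP5PO 62.6% under AP000311.1. Those 5 overlapping genes were listed at 0 in all 4 libraries. Core subunits were among the genes with overlap. NDUFV2, an iron-sulfur core subunit of complex I, was at 0.895 and 2.32 FPKM in BT-20 against 1.88 and 2.15 in MDA-MB-468, while NDUFV1, its flavin-carrying partner with 0% overlap, was at 216 and 175, and at 427 and 487. SDHD, COX8A, NDUFB2 and NDUFB9 had overlap and means of 71.4 to 76.2 FPKM. NDUFA2 had only 17.0% of its coding bases under IK, a gene on the opposite strand at 120 to 157 FPKM, and was at 8.60 to 13.1 FPKM. The part of the overlap in the low values was not tested, and the 14 genes had a median of 108.5 fragments per library against 1324 for the other 45, with overlapping ranges (9.5 to 776 against 246 to 5200).

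**Figure D2:**
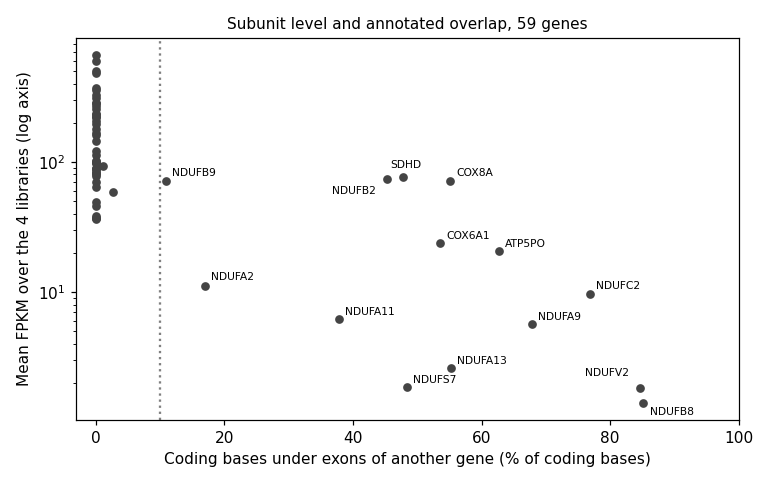
Mean FPKM over the 4 libraries (log axis) against the share of coding bases under exons of another gene, 1 point per subunit gene; the dotted line marks 10%. All genes below 25 FPKM lie to the right of the line, and NDUFB2, SDHD, COX8A and NDUFB9 lie to the right at 71.4 to 76.2 FPKM.

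Nuclear subunit genes are known to share binding sites for NRF1, for GABPA (also called NRF2) and for YY1 near their starts. A RefSeq promoter window (GRCh38.p14, 250 bases before to 50 after the start) was found by symbol for 50 of the 59 genes. The letters searched, on both strands, were GCGC, any base and TGCGC in a row for NRF1, CCGGAAGT for GABPA and AANATGGCG for YY1. NRF1 letters were in 12 of the 50 windows (24%, against 6.98% of all 27305 windows and 13.4% of the 10533 windows of tested genes). GABPA letters were in 8 (16%, against 4.95% and 9.99%), and YY1 letters in 14 (28%, against 3.85% and 7.98%). At least 1 of the 3 was in 29 (58%, against 14% and 27.7%). The windows of the genes on which the results below turn are printed with matches in capitals. They are COX7C, which was higher with QPRT shRNA in both lines, NDUFS6 and COX8A, which were lower in BT-20 but higher in MDA-MB-468, and UQCRH and ATP5F1C, which were among those with the largest line differences. COX7C, at chr5:86617691-86617990 on the plus strand, held no match. The match in NDUFS6 (chr5:1801157-1801456, plus strand) was to YY1 and began at base 9 from the start, and it overlaps the ATG of the coding sequence. COX8A (chr11:63974370-63974669, plus) and UQCRH (chr1:46303448-46303747, plus) each held the reverse complement of the GABPA letters, beginning at -19 and -47. ATP5F1C (chr10:7787927-7788226, plus) held NRF1 letters at -22. Among the other genes with large line differences, NDUFS5 had no window, NDUFV1 and NDUFB7 held no match, and NDUFS3 and NDUFS4 held YY1 letters. A match describes letters only.
COX7C: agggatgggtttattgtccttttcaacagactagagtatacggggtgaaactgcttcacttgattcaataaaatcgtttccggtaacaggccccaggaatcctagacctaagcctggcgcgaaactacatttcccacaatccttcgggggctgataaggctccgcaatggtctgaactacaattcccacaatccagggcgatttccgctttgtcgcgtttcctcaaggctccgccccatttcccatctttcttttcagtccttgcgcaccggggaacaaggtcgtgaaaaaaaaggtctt
NDUFS6: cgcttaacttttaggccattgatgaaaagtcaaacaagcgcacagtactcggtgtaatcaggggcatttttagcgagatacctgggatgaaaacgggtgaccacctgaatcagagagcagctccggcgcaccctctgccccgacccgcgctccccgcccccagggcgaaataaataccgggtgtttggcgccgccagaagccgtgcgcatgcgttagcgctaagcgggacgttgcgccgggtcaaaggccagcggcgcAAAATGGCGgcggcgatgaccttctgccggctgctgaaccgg
COX8A: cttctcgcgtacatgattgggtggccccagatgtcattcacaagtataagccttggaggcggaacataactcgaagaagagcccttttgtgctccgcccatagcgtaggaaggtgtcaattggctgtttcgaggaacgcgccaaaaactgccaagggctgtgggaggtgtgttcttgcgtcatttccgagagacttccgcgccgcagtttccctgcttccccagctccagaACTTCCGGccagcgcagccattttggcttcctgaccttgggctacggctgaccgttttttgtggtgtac
UQCRH: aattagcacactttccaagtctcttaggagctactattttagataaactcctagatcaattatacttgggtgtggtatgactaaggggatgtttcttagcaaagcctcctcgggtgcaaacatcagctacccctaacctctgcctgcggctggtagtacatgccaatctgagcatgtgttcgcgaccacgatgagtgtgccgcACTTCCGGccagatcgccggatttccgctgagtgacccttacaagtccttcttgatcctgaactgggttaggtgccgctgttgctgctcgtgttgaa
ATP5F1C: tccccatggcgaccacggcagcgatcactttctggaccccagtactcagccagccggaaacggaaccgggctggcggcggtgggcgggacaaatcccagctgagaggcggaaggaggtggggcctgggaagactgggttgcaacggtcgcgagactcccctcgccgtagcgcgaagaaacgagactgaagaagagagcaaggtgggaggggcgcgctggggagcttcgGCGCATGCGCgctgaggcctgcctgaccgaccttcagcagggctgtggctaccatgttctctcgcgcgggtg

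In BT-20 most subunit genes were slightly lower in the QPRT shRNA library. Of the 59, 45 were lower and 14 higher, against 43% lower and 56.4% higher among all 14321 tested genes. The median difference was -0.17 as log2(FPKM + 1), a scale that compresses changes of weakly expressed genes, and that of all tested genes was 0.048. The 29 genes whose counting interval lay below 0 included NDUFS6, SDHA, CYC1, COX4I1 and COX8A, and 3 had an interval above 0 (NDUFS1, COX7C and ATP5F1B). Among the 14232 tested genes with a fragment number, 16.7% had an interval below 0 and 26.8% above it, and among the 3113 with a mean FPKM of at least 50, which have narrower intervals, 36.7% and 28.8%. The intervals are exact 95% Clopper-Pearson intervals for the fragment ratio and cover counting error only. Past 1.5-fold there were 3 genes lower (NDUFS6, NDUFA9 and COX8A, against a background of 3.27%) and 1 higher (NDUFV2, against 5.7%). Apart from these 3, each of the lower genes was within 1.5-fold on the log2(FPKM + 1) scale. With 0.1 added in place of 1, 4 genes were lower past 1.5-fold. NDUFB8, on 11 and 7 fragments, then differed by -0.64.

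Within complex I, 26 of 32 genes were lower in BT-20, with a median of -0.18. NDUFS6, a zinc-binding accessory subunit (ENSG00000145494, chromosome 5, 1801400 to 1816605, plus strand), was at 496 and 299 FPKM in BT-20 against 290 and 339 in MDA-MB-468. On 3322 and 2055 fragments the log2 difference in BT-20 was -0.73, with an interval of -0.81 to -0.65. None of its coding bases overlap another gene. NDUFA9, an accessory subunit with 67.9% overlap, was at 7.83 and 4.42 FPKM in BT-20 against 5.63 and 4.61 in MDA-MB-468, and differed by -0.70 in BT-20 (interval -1.251 to -0.41, 131 and 76 fragments). NDUFV2 differed by 0.81, but on 6 and 16 fragments, and its interval of -0.051 to 3.02 included 0. NDUFS1, the largest iron-sulfur core subunit, was a well-covered exception at 37.0 and 44.4 FPKM in BT-20, a difference of 0.26 (interval 0.15 to 0.38), and it was at 36.6 and 30.1 in MDA-MB-468. Some other core subunits were lower, as for NDUFS8 (159 and 117 FPKM) and NDUFV1, so core subunits of complex I differed in both directions.

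The remaining complexes differed in how many members were lower in BT-20. In complex IV, 8 of 10 were lower (median -0.18), in complex III 6 of 7 (median -0.077), in complex II 2 of 4 (median -0.072) and in complex V 3 of 6 (median -0.013). COX8A, the smallest subunit of complex IV (ENSG00000176340, chromosome 11, 63974607 to 63976543, plus strand), was at 60.9 and 37.6 FPKM in BT-20 against 87.0 and 101 in MDA-MB-468. Its BT-20 difference was -0.68 (interval -0.95 to -0.44), on 328 and 208 fragments and with 55.1% of coding bases under AP000721.1. SDHA, the flavin-carrying catalytic subunit of complex II, was at 368 and 286 FPKM in BT-20 against 231 and 242 in MDA-MB-468. The SDHA difference in BT-20 was -0.36 (interval -0.42 to -0.31), and 4 annotated SDHA pseudogenes, the highest at 21.0 FPKM, may share its reads. UQCRQ, a small subunit of complex III, was at 85.9 and 62.7 FPKM in BT-20 against 106 and 117 in MDA-MB-468, a difference of -0.45 in BT-20 (interval -0.65 to -0.26). COX6A1 was at 27.5 and 19.7 FPKM in BT-20 against 22.1 and 25.6 in MDA-MB-468, and ATP5PO, the stalk subunit OSCP of complex V, at 23.4 and 19.3 and at 19.2 and 20.4. COX6A1 was lower in BT-20 beyond its interval (-0.81 to -0.15), while the interval of ATP5PO (-0.59 to 0.032) included 0. ATP5F1B was higher by 0.16 (interval 0.10 to 0.21). By class, 36 of 43 accessory subunits (median -0.18) and 9 of 16 core subunits (median -0.059) were lower.

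In MDA-MB-468 more subunit genes were higher than lower with QPRT shRNA, and the median difference was closer to 0. Of the 59 genes, 37 were higher and 22 lower, against 51.5% higher and 47.6% lower among all tested genes. The median was 0.075, and that of all tested genes 0.011. Past 1.5-fold 1 gene was higher (COX7C, background 5.46%) and 0 were lower (background 3.71%). The counting interval lay above 0 for 17 genes and below 0 for 6 (NDUFA10, NDUFB4, NDUFS1, SDHC, UQCRC2 and ATP5F1C), against 22.9% and 21.1% of the tested genes (32.7% and 32.1% of those with a mean FPKM of at least 50). By complex, 19 of 32 members of complex I were higher (median 0.080), 2 of 4 of complex II (median -0.042), 5 of 7 of complex III (median 0.080), 8 of 10 of complex IV (median 0.092) and 3 of 6 of complex V (median 0.033). Complex IV thus had 8 of 10 members lower in BT-20 and 8 of 10 higher in MDA-MB-468. After removal of the GC and length trends described below, these counts were 6 and 7 of 10.

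The genes with the largest differences in MDA-MB-468 lay on both sides of 0. NDUFB10, an accessory subunit of the membrane arm of complex I, was at 106 and 96.1 FPKM in BT-20 against 82.4 and 109 in MDA-MB-468, where it differed by 0.40 (interval 0.25 to 0.55). NDUFA3, another accessory subunit, was at 154 and 127 in BT-20 against 74.9 and 94.5 in MDA-MB-468, a difference of 0.33 (interval 0.14 to 0.53). COX5B, a matrix-side subunit of complex IV, was at 301 and 272 and at 202 and 248, a difference of 0.30 in MDA-MB-468 (interval 0.20 to 0.40). Each of these 3 was the higher of the pair in MDA-MB-468 and the lower in BT-20. UQCRC2, an accessory subunit of complex III, was at 147 and 154 FPKM in BT-20 against 105 and 80.2 in MDA-MB-468, where it was lower by -0.38 (interval -0.52 to -0.25). SDHC, a membrane anchor of complex II, was at 99.98 and 106 and at 67.2 and 54.2, lower by -0.31 in MDA-MB-468 (interval -0.42 to -0.20). ATP5F1C, the rotating gamma subunit of complex V, was at 143 and 144 and at 346 and 309, lower by -0.16 (interval -0.24 to -0.081). UQCRC2 and ATP5F1C thus lay below 0 where the medians of their complexes were above it, and SDHC shared the sign of complex II. NDUFA13, with 55.2% overlap, was at 2.24 and 2.42 FPKM in BT-20 against 3.38 and 2.31 in MDA-MB-468, and its difference of -0.41 there had an interval of -1.49 to 0.35 on 28 and 18 fragments. ATP5MC1, a gene for the c-ring subunit of complex V, was at 91.1 and 81.4 and at 85.4 and 93.9, with an interval in MDA-MB-468 that included 0 (-0.020 to 0.29). COX6C was at 176 and 156 and at 231 and 217, lower in both lines by -0.17 and -0.087.

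**Figure D3:**
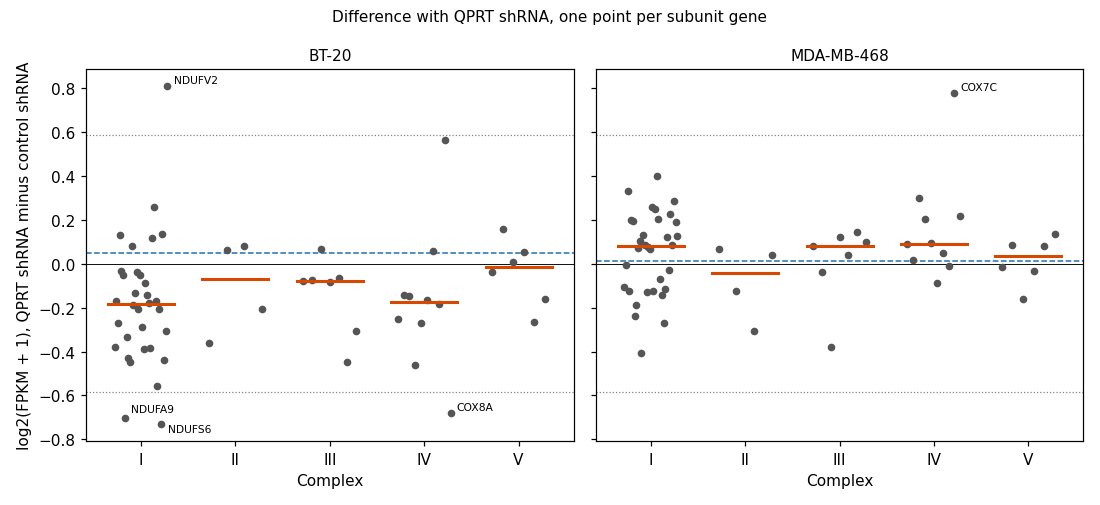
Difference of log2(FPKM + 1), QPRT shRNA minus control shRNA, in each line; points are subunit genes by complex, orange bars are complex medians, the dashed blue line is the median of all tested genes and dotted lines mark 1.5-fold. Complex I and IV medians lie at -0.18 in BT-20 and at 0.080 and 0.092 in MDA-MB-468, and COX7C lies highest in MDA-MB-468.

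Across the lines, 32 of the 59 genes were lower in BT-20 and higher in MDA-MB-468, a combination seen in 24.8% of all tested genes. The reverse combination held for 9 genes (29.8% of all), 13 were lower in both (17.7%) and 5 higher in both (26.2%). Of the 32, 11 had counting intervals below 0 in BT-20 and above 0 in MDA-MB-468: NDUFA3, NDUFB7, NDUFB10, NDUFB11, NDUFS6, NDUFS8, NDUFV1, COX4I1, COX5B, COX6B1 and COX8A. NDUFS1 alone had the reverse. These combinations were seen in 5.7% and 8.82% of the tested genes, and in 15.1% and 13.4% of those with a mean FPKM of at least 50, so the 11 were close to the share among well-expressed genes. The difference between the lines was not tested, since each rests on 1 library per shRNA.

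Differences across all genes also followed the GC content and length of transcripts, with opposite slopes on GC in the lines. With all tested genes in 5 equal groups by GC content, the BT-20 median went from 0.17 in the lowest group to -0.062 in the highest, and the MDA-MB-468 median from -0.11 to 0.13. By length, the BT-20 median was -0.079 in the shortest group and 0.17 in the longest, and the MDA-MB-468 median was 0.056 and -0.039. Subunit transcripts were short, with a median of 766 bases against 1501 for all tested genes, and had a median GC content of 49.0% against 50.1%. The subunits were therefore set against the 4673 tested genes within their 10th to 90th percentiles of length (563 to 1539 bases) and GC content (42.6% to 60.3%). In that window 53.6% of genes were lower in BT-20, with a median of -0.020, and 55.2% were higher in MDA-MB-468, with a median of 0.034. After the trends on GC content and length were removed, the subunit median was -0.059 in BT-20, with 36 of 59 lower and 23 higher (42.4% and 57.5% of all genes). In MDA-MB-468 it was 0.044, with 36 higher and 23 lower (51.7% and 48.3%). The sign of the median was the same as before in each line, and its size in BT-20 was smaller. Lower in BT-20 were then 22 of 32 genes in complex I, 2 of 4 in II, 4 of 7 in III, 6 of 10 in IV and 2 of 6 in V. By class, 29 of 43 accessory and 7 of 16 core subunits were then lower there. NDUFB10 and COX5B, lower in BT-20 as deposited, were at 0.078 and 0.031 there after the removal, ATP5MC1 was at 0.0066, and COX6B1, higher in MDA-MB-468 as deposited, was at -0.015 there.

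**Figure D4:**
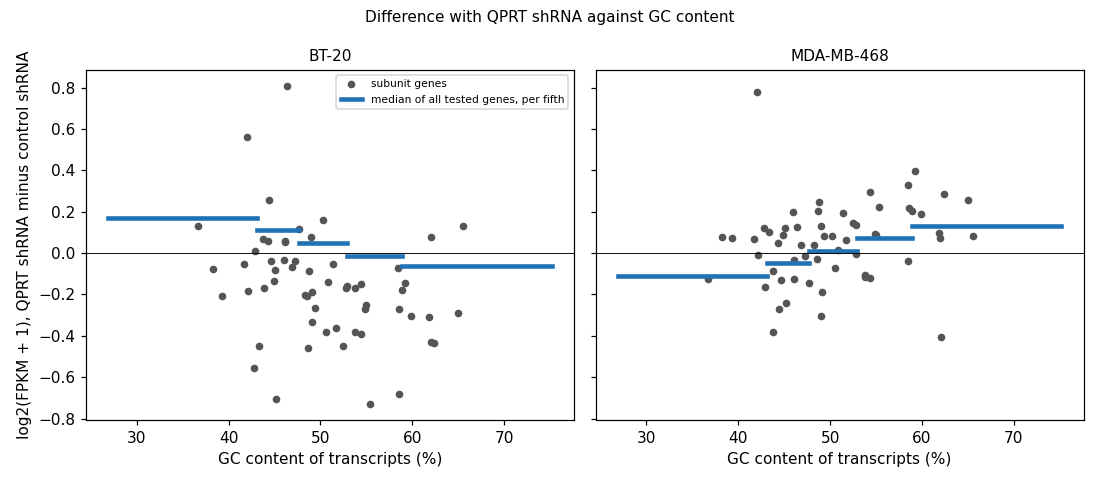
Difference of log2(FPKM + 1), QPRT shRNA minus control shRNA, against the GC content of transcripts in each line; points are subunit genes and blue segments the median of all tested genes in each of 5 equal groups by GC content. The segments fall from 0.17 to -0.062 on the left and rise from -0.11 to 0.13 on the right, and subunit points in BT-20 lie mostly below them.

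COX7C, a small membrane-spanning subunit of complex IV, stood apart from its complex. The gene is ENSG00000127184, on chromosome 5 from 86617904 to 86620962 on the plus strand. It was at 194 and 287 FPKM in BT-20 (1397 and 2121 fragments) against 244 and 419 in MDA-MB-468 (1805 and 2925 fragments). Both QPRT shRNA libraries were above both control libraries. The difference was 0.56 in BT-20 (1.48-fold, interval 0.47 to 0.66). It was 0.78 in MDA-MB-468 (1.72-fold, interval 0.70 to 0.87). A difference of at least 0.5 in both lines was seen in 105 of the 14321 tested genes, and in 7 of the 3113 with a mean FPKM of at least 50. Its coding bases overlap no other gene, and the highest of 4 annotated COX7C pseudogenes was at 2.40 FPKM. After removal of the GC and length trends the differences were 0.59 and 0.85.

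Over both lines, limma with a cell line block, where the lines stand in for replicates, called 0 of the 59 subunits at an adjusted p under 0.05, against 0.628% of all tested genes. At an unadjusted p under 0.05 it called 1, COX7C, against 4.8%. Limma-voom on the recovered fragments also called 0, with COX7C alone at the unadjusted threshold. COX7C was higher by 0.67 (SE 0.19) with a limma adjusted p of 0.064, in 2 of 2 lines. The adjusted p ranged from 0.057 to 1 over the alternatives, so this difference did not pass the correction. The median of the 59 was -0.066, and that of all tested genes 0.033. This fit has 1 residual degree of freedom per gene, and a change in opposite directions in the lines cannot appear in it.

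Between the lines, subunit genes differed in both directions and by more than with the shRNA. With the shRNA as a block, limma called 27 of 59 at an adjusted p under 0.05, below the 55.1% of all tested genes. Of these, 18 were higher in MDA-MB-468 (background 30.7%) and 9 lower (background 24.4%). The median of the 59, MDA-MB-468 minus BT-20, was 0.040, and that of all tested genes 0.099. NDUFS5 was higher by 1.75 (SE 0.19, limma adjusted p = 1.5e-19), a 3.37-fold difference, with both MDA-MB-468 libraries above both of BT-20. UQCRH, the hinge protein of complex III, was at 210.2 and 201 FPKM in BT-20 against 522 and 536 in MDA-MB-468, higher by 1.36 (SE 0.19, limma adjusted p = 6.3e-12). ATP5F1C was higher by 1.19 (SE 0.19, limma adjusted p = 4.2e-09). Without the block, the limma adjusted p of NDUFS5, UQCRH and ATP5F1C was 2.8e-05, 7.6e-05 and 0.00020. With no filter on low values it was 0.18, 0.17 and 0.18, so these p-values depend strongly on the fit. NDUFV1, NDUFS4, NDUFS3 and NDUFB7 were higher by 1.23, 1.15, 1.13 and 1.11. These 7 genes belong to complexes I, III and V, and those of complex I include core (NDUFV1, NDUFS3) and accessory subunits.

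Members lower in MDA-MB-468 differed by less. SDHC differed by -0.76 (SE 0.20, limma adjusted p = 0.00056), NDUFA3 by -0.72, UQCRC2 by -0.71 and NDUFA10 by -0.68. The limma adjusted p of SDHC was 0.0046 without the block and 0.31 with no filter on low values. In complex II, 3 of 4 genes were lower (2 called), and SDHD, the other membrane anchor (75.8 and 65.6 FPKM in BT-20 against 80.5 and 82.7 in MDA-MB-468), differed by 0.21 and was not called. In complex IV, 8 of 10 were higher and 5 were called (COX6C, COX7A2, COX7B, COX7C and COX8A). Complex I had 9 called higher and 4 lower of 32, complex III 2 higher and 3 lower of 7, and complex V 2 higher and 0 lower of 6. UQCRFS1, the Rieske iron-sulfur subunit of complex III, was at 42.5 and 40.1 FPKM in BT-20 against 54.4 and 59.2 in MDA-MB-468, and its limma adjusted p of 0.059 missed the threshold. NDUFC2, on 77 to 176 fragments, had the fewest fragments of the genes called. Calls went in both directions in complexes I and III and in 1 direction in complexes II, IV and V. After removal of the GC and length trends from the line comparison, 16 subunits were called higher and 13 lower. Among the 14321 tested genes these counts were 4441 and 3527. Complex IV then had 3 called higher and 1 lower (COX5B), so its calls went in both directions. Complex II had 3 called lower of 4, and complex V 2 called higher of 6.

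The counts of called genes changed with single libraries, in fits without the block in which the lone library of a line is assumed to vary like the others. Without the BT-20 control library 14 were called higher and 0 lower (17% and 14.2% of all tested genes), and without the BT-20 QPRT shRNA library 11 and 4 (18.9% and 14.1%). Without the MDA-MB-468 control library it was 11 and 2 (19.2% and 14.7%), and without the MDA-MB-468 QPRT shRNA library 10 and 2 (18.6% and 14.8%). The calls over all genes thus fell as well.

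**Figure D5:**
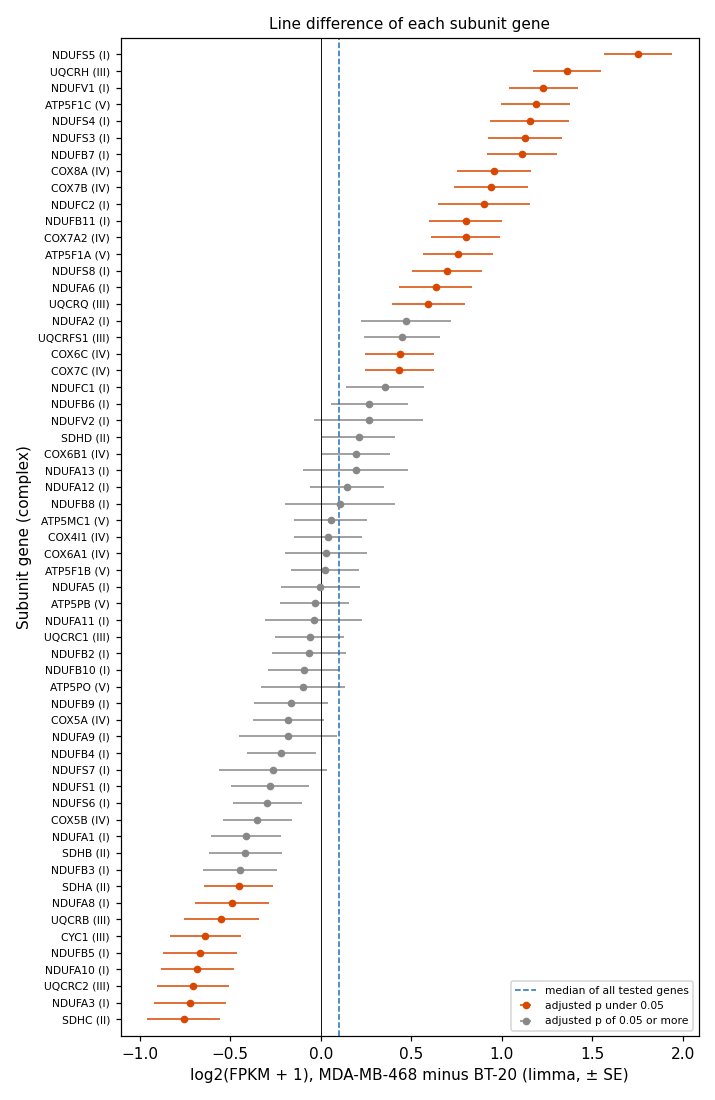
Difference between the lines (MDA-MB-468 minus BT-20, log2(FPKM + 1), limma with the shRNA as a block) for the 59 subunit genes; bars are ± SE, orange marks an adjusted p under 0.05 and the dashed line is the median of all tested genes. NDUFS5 lies highest at 1.75 and SDHC lowest at -0.76.

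Other genes of the pathway were set beside the 59. The 21 other nuclear subunits, of which 20 passed the filter, were lower in BT-20 in 17 (median -0.24) and higher in MDA-MB-468 in 14 (median 0.073). ATP5PD, a stalk subunit of complex V, was the single one past 1.5-fold, at 46.3 and 29.99 FPKM in BT-20 against 65.7 and 75.5 in MDA-MB-468. Subunits encoded by mitochondrial DNA were lower in BT-20 in 8 of 13 (median -0.043) and higher in MDA-MB-468 in 7 (median 0.0040). Between the lines 12 of these 13 were lower in MDA-MB-468, against 45.2% of all tested genes. Limma called 8 of the 13, all lower, against 24.4% of all tested genes called lower and 55.1% called in either direction. Without the block limma also called 8, of which 7 were the same. Among the 8 called with the block was MT-ATP6 (9586 and 8200 FPKM in BT-20 against 3743 and 4413 in MDA-MB-468). Assembly factors, which build the complexes and are not part of them, were lower in BT-20 in 26 of 46 (median -0.057) and higher in MDA-MB-468 in 29 (median 0.068). PET100, a factor for complex IV, was the single one past 1.5-fold, at 1.81 and 3.99 FPKM in MDA-MB-468. Of 11 regulators of nuclear subunit genes that passed the filter, 11 were higher in BT-20 with QPRT shRNA (median 0.22; 10 after removal of the GC and length trends) and 6 in MDA-MB-468 (median 0.030). ESRRA, a nuclear receptor of this program, was at 53.6 and 73.1 FPKM in BT-20 against 84.3 and 95.1 in MDA-MB-468. Limma over both lines called 0 genes of these 4 lists at an adjusted p under 0.05 and 0 at an unadjusted p under 0.05. Limma-voom called 0 at the adjusted threshold and 1, an assembly factor, at the unadjusted threshold. Regulators and subunits thus had medians of opposite sign in BT-20. The regulators shared the sign of all tested genes there (median 0.048, 56.4% higher). After removal of the GC and length trends the regulator median in BT-20 was 0.12.

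Lists of other abundant complexes were measured for reference. The 14 genes of the 20S proteasome core were lower in 14 of 14 in BT-20 (median -0.23) and in 13 in MDA-MB-468 (median -0.074). The 44 genes of the large cytosolic ribosomal subunit were lower in 42 in BT-20 (median -0.13) and higher in 40 in MDA-MB-468 (median 0.17). After removal of the GC and length trends, 28 ribosomal genes were lower in BT-20 (median -0.034) and 41 higher in MDA-MB-468 (median 0.13). Ribosomal genes thus had a median below 0 in BT-20 but above it in MDA-MB-468, as the oxidative phosphorylation subunits did, and the proteasome medians were below 0 in both.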

How the data were processed

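Control and QPRT shRNA cells of both lines gave 4 RNA libraries, sequenced on an Illumina NovaSeq system (TruSeq RNA kit). The authors trimmed the reads and deposited FPKM values per Ensembl gene, which divide fragments by transcript length and library total. The submitters' processing notes list FastQC, MultiQC, CASAVA, TopHat2 2.0.12 and HTSeq 0.6.1; the build and annotation are not given in the sources used here. HTSeq in its default mode leaves out fragments that lie on exons of more than 1 gene, and whether that mode was used is not stated.

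Of 50653 genes, 49414 matched a symbol and 49839 a GENCODE 29 transcript length; for 27 repeated symbols the row of highest mean was used. FPKM times the mean transcript length gave whole fragments (within 0.02) for 97.6% to 97.8% of values above 0 in genes with a single transcript, and the fragment numbers come from this step. GENCODE coordinates (GRCh38) and overlaps were matched by identifier. Intervals cover counting error only, since no molecular identifiers were used and fragments may be copies of 1 molecule.

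Tests used limma 3.58.1 (R 4.3.3) on log2(FPKM + 1) for 14321 genes (mean FPKM of at least 1), with eBayes and a trend on mean expression, and Benjamini-Hochberg adjustment over all of them. The cell line pairs the libraries for the shRNA comparison and was its block; the shRNA was the block for the line comparison. With no separate cultures stated, p-values measure only the spread between these libraries. On simulated data limma made more false calls than its threshold allows, mostly among genes with few fragments. Whether limma would call shRNA differences as small as those of the subunits was not tested. The count test named in the study was not run because FPKM are not counts; limma-voom on recovered fragments was an alternative. Trends on GC content and log2 transcript length were removed by lowess (fraction 0.3, statsmodels 0.14.6).

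Named subunits are, per complex, those with the highest and lowest mean, the largest line difference and the largest shRNA difference in either direction in each line, plus all past 1.5-fold within a line; any of the 59 could be named. Up to 3 genes of each other list were named when past 1.5-fold or the adjusted p, and ESRRA was chosen after its values were seen. The members and lists were chosen with earlier results of these data known, so no list was tested. The alternatives are given in the closing section. SCO2, in the list of 48 assembly factors, was not analysed here, and of 7 tissue-restricted isoforms of complex IV and NDUFA4 only 3 passed the filter.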

Additional observations from a re-analysis of the deposited data

Results flagged for a closer look

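Several differences with QPRT shRNA ran in opposite directions in the 2 lines, with 1 library per line and shRNA, and the difference between the lines was not tested. The median of all 59 subunit genes was 0.243 higher in MDA-MB-468 than in BT-20 on the log2(FPKM + 1) scale. For the complexes this gap was 0.264 in complex I, 0.156 in complex III, 0.268 in complex IV and 0.0462 in complex V, where the BT-20 median was -0.013. After removal of the GC and length trends the gap was 0.103 for all 59, 0.118 in complex I, 0.173 in complex III and 0.174 in complex IV, while in complex V both medians were above 0 (0.0263 in BT-20, 0.0341 in MDA-MB-468). Among single genes it was 0.954 for NDUFS6, 0.898 for COX8A, 0.603 for NDUFA3, 0.542 for NDUFB10, 0.446 for COX5B and 0.362 for COX6B1. After removal of the GC and length trends NDUFB10 and COX5B were above 0 in both lines (0.078 and 0.27, 0.031 and 0.21) and COX6B1 was below 0 in both (-0.0996 and -0.015). NDUFS6 (-0.54 and 0.12), COX8A (-0.48 and 0.070) and NDUFA3 (-0.074 and 0.18) still differed in sign.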

How the results depend on the processing

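Limits come first from the design: 1 library per line and shRNA, 1 residual degree of freedom in limma, and low fragment numbers for the genes with coding overlap. The line counts of 18 higher and 9 lower fell to 0 and 0 with no filter on low values, where limma called 0 of all genes and 21 subunits reached an unadjusted p under 0.05. Leaving out 1 library moved them to 10 to 14 higher and 0 to 4 lower, the line median to between -0.0244 and 0.153 (-0.00383 without the MDA-MB-468 QPRT shRNA library) and ATP5PO to between -0.232 and 0.0358. The line median was -0.0149 in the control libraries alone and 0.203 in the QPRT shRNA libraries alone, where ATP5PO was 0.0761. In BT-20, removal of the GC and length trends gave 2 genes past 1.5-fold higher, 1 lower and a median of -0.0588. TPM scaling gave 2 higher, and a mean FPKM of at least 5 gave 0. A 2-fold threshold gave 0 higher and 0 lower in BT-20 and 0 higher in MDA-MB-468, and a log2 threshold of 0.32 gave 2 and 14 in BT-20, with 3 and 2 for MDA-MB-468. With only the 45 subunits under 10% overlap, a choice made after seeing the data, 0 were higher and 1 lower in BT-20. The cause of these moves was not tested, apart from thresholds and filters, which act by construction. Without the cell line or shRNA as a block, the line counts were 18 and 11, with 26 subunits called in both fits: COX7C lost its line call, and NDUFB3, SDHB and UQCRFS1 gained one. In the shRNA comparison COX7C then had a limma adjusted p of 1, and the 7 calls among markers of other cells fell to 0. COX5B passed the line threshold only after trend removal (limma adjusted p = 0.039). The other alternatives kept the counts within 1.5 times and the medians in direction: pseudocount 0.1, upper quartile scaling, eBayes without the trend and limma-voom.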

Other observations

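Isoforms of complex IV subunits and of NDUFA4 with restricted tissue expression were low in both lines. COX4I2, COX6A2 and COX8C were listed at 0 in all 4 libraries. COX7B2, a form of COX7B known mainly from testis, was at 10.1 and 11.2 FPKM in BT-20 (control, then QPRT shRNA) against 0.338 and 0.179 in MDA-MB-468, on 58 and 66 fragments in BT-20 and 2 and 1 in the other line. NDUFA4L2, a relative of NDUFA4, was at 7.66 and 4.56 FPKM in BT-20 against 2.48 and 1.53 in MDA-MB-468, lower with QPRT shRNA in both lines by -0.64 and -0.46, and without a call over both lines. The ubiquitous form COX7B was at 46.8 and 41.0 FPKM in BT-20 against 85.2 and 84.6 in MDA-MB-468. COX7B was thus at the higher level in MDA-MB-468 and COX7B2 in BT-20, and these genes were chosen after their values were seen.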
